A study of Mus musculus with 5 samples.

Results

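In mouse epiblast stem cell (EpiSC) cultures treated with an inhibitor of FGF receptors, 468 of 1701 retained cells met a selection for N-cadherin transcripts without detected E-cadherin or Cdx2 transcripts, a share of 27.5% (exact binomial 95% interval 25.4 to 29.7%). These cells, called N-cadherin-positive cells below, were selected on raw counts of unique molecular identifiers (UMIs), with at least 2 for Cdh2, 0 for Cdh1 and 0 for Cdx2 (the gate named in the plots). Cdh2 encodes N-cadherin, Cdh1 encodes E-cadherin, and Cdx2 encodes a caudal homeobox transcription factor. Because these 3 genes defined the cells, they were left out of the totals behind every normalised level (CPM) and are not reported as findings. The series held 10653 retained cells in 5 single-cell libraries. All libraries came from a wild-type EpiSC line on a 129 background that was differentiated toward mesoderm for 3 days in N2B27 medium, always with BMP4 (8 ng/ml) and with CHIR99021 (Chi, 1 µM), a Wnt agonist. The FGFRi library also received 30 nM AZD4547, a selective FGFR inhibitor, and the other libraries received FGF2 at 0, 0.75, 3 or 12 ng/ml. Retained cells had a median of 24408 UMIs in the FGFRi library, and of 29662, 27505, 28527 and 27452 UMIs in the others with increasing FGF2. An FGF2 dose for the FGFRi library is not given in the sources used here. Each condition was 1 library, so the spread between cultures is unknown, no test was made, and every interval below covers counting error only.

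Cadherins hold neighboring cells together, and epithelial cells of the epiblast carry E-cadherin. When cells leave the epiblast during gastrulation they undergo an epithelial-to-mesenchymal transition (EMT), in which E-cadherin, claudins, keratins and desmosomal proteins give way to N-cadherin, vimentin and a matrix of fibrillar collagens. Transcription factors of the Snail, Zeb, Twist and Prrx families are known drivers of this switch, and Snail and Zeb proteins repress epithelial genes by binding E-boxes of the form CAGGTG. FGF signaling normally promotes the switch in the primitive streak.

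The N-cadherin-positive cells contributed 12484255 UMIs, or 12481781 without the 3 genes that defined them. Their median depth was 24240 UMIs and 4946 detected genes per cell, against 24523 UMIs and 5010 genes in the 1233 other retained cells of the library. Mitochondrial transcripts made up a median of 4.26% and 4.403% of the UMIs of a cell, and ribosomal protein transcripts took 23.4% and 23.9% of all UMIs. Of the 468 cells, 101 carried exactly 2 Cdh2 UMIs, 85 carried 3 and 282 carried 4 or more. Just outside the selection stood 94 cells with 1 Cdh2 UMI and neither Cdh1 nor Cdx2, 102 cells that had enough Cdh2 but 1 Cdh1 UMI, and 52 cells that met both cadherin criteria but had Cdx2 UMIs. A mirrored selection (Cdh1 at least 2, Cdh2 0 and Cdx2 0) held 467 cells, called E-cadherin-positive below. A further 350 cells had UMIs of both cadherins, 109 had neither, and 307 fell into none of these classes. The retained FGFRi barcodes shared 2 sequences with the library at 0.75 ng/ml, 1 with that at 12 ng/ml and 0 with the other two.

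To describe how the N-cadherin-positive cells differed from the remainder of their own culture, UMIs were summed over cells and scaled to counts per 1000000 UMIs (CPM). A gene was counted as higher or lower where it reached at least 50 CPM in either group and the CPM differed at least 2-fold. By this rule 39 of 3136 genes were higher in the N-cadherin-positive cells (1.24%) and 54 were lower (1.72%). The median log2 ratio of the 3136 genes was 0.02. Among the leading higher genes were Col3a1, Prrx1, Htra1, Mfap4, Twist1, Col1a1, Serpinf1, Rspo3, Gxylt2, Mir100hg and Robo2, with ratios between 5.76 for Col3a1 and 3.01 for Robo2. The lower genes were led by Cldn7, Cldn6, Krt8, Phlda2, Mt2, Sct, 3830417A13Rik, Mt1, Krt19, F2rl1, Epcam and Cgn, which were between 156-fold (Cldn7) and 5.85-fold (Cgn) lower. Each of the 39 and 54 genes also differed at least 2-fold in the same direction from the E-cadherin-positive cells, which are part of the comparison group. The selection on cadherins and this comparison used the same cells, so these values describe the cells and do not test them.

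**Figure D1:**
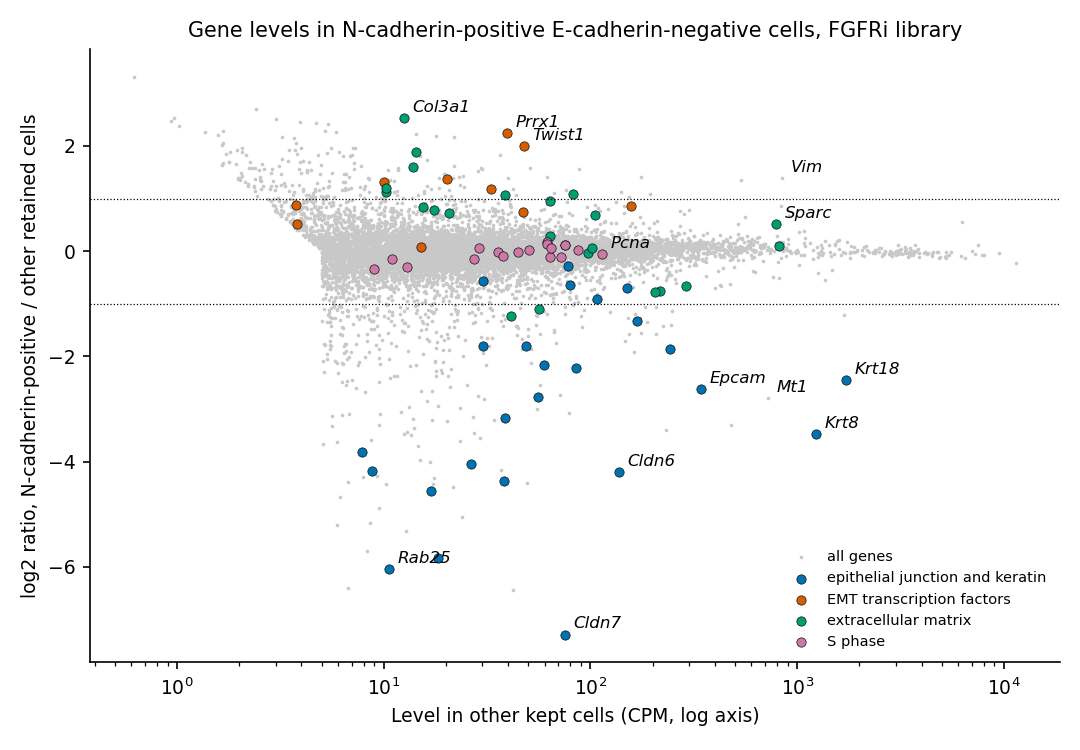
Each point is a gene with at least 5 CPM in either group, placed by its level in the other retained cells (CPM, log axis) and by the log2 ratio of N-cadherin-positive to other cells. Most epithelial genes lie below the lower dotted line (2-fold lower), EMT transcription factors all lie above 0, matrix genes lie on both sides, and S phase genes lie near 0 (median -0.01).

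Epithelial genes were low almost throughout. Of 28 genes for junctions, keratins and their regulators, 25 reached 5 CPM, and 23 of these were at least 1.5-fold lower in N-cadherin-positive cells and 0 were higher. The median log2 ratio of the 25 genes was -2.62, against -0.01 over all 10051 genes at this level, of which 6.76% were lower and 5.65% higher by the same 1.5-fold rule. Krt8 (ENSMUSG00000049382, chromosome 15, 101996698 to 102004482), which encodes a keratin of simple epithelia, stood at 110 CPM (interval 105 to 116) against 1235 CPM (1224 to 1247) in the other cells, an 11.2-fold lower level. Its partner Krt18 stood at 313 CPM (303 to 323) against 1716 CPM (1703 to 1730). Claudins, the strand proteins of tight junctions, were lower as well. Cldn7 (ENSMUSG00000018569, chromosome 11, 69964779 to 69967885) had 6 UMIs among all 468 cells, or 0.481 CPM (0.176 to 1.05), against 75.1 CPM (72.3 to 78.0), and Cldn6 (chromosome 17, 23679249 to 23682446) stood at 7.53 CPM against 138 CPM. Epcam, a surface glycoprotein of epithelia, stood at 55.8 CPM (51.7 to 60.1) against 342 CPM (336 to 348). Dsp, which links desmosomes to keratin filaments, stood at 67.1 CPM against 242 CPM. The splicing regulator Esrp1, the transcription factor Grhl2 and the trafficking gene Rab25, all specific to epithelia, stood at 1.60, 0.721 and 0.16 CPM against 26.5, 16.9 and 10.6 CPM. The 2 genes of the list that differed by less than 1.5-fold were Pkp2 (63.9 against 78.0 CPM) and Cdh3 (20.3 against 30.2 CPM).

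The promoters of the epithelial list were searched for the E-box. RefSeq windows (GRCm38.p6) from 250 bases before to 50 bases after the transcription start were at hand for 18 of the 28 epithelial genes, and 14 of the 18 held CAGGTG or its reverse complement CACCTG, a share of 77.8%, compared with 22.6% of 27025 genes with such a window. The 14 genes were Cldn3, Cldn4, Cldn6, Cldn7, Crb3, Dsp, Epcam, Krt7, Krt8, Krt18, Ocln, Rab25, Spint2 and Tjp3. Of these, Cldn3 was among the 3 genes of the list, with Ovol1 and Ovol2, that did not reach 5 CPM in either group. Counted by window, the motif was in 17 of 22 epithelial windows (77.3%) and in 20.2% of all 32851 windows. Genes without a window included Cdh3, Dsc2, Dsg2, Esrp1, Grhl2, Krt19, Ovol1, Pkp2 and St14. Of 8 EMT transcription factor genes with a window, 1 (Snai1) held the motif, and of 12 mesenchymal and contractile genes 1 (Myl9) did. The stretches of 30 bases around the E-box nearest upstream of the start are shown for 5 epithelial genes whose levels are given above or here, each 5′ to 3′ on the strand of the gene, with the E-box in capitals:
Cldn7: agacttccggttCAGGTGagtgtcccttca
Cldn6: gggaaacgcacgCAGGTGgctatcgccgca
Epcam: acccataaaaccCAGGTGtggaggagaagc
Krt18: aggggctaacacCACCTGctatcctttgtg
Crb3: ctcagccaggctCAGGTGcacaagccggaa
The Cldn7 stretch lies at chr11:69965352-69965381 (plus strand), that of Cldn6 at chr17:23679260-23679289 (plus strand), that of Epcam at chr17:87635948-87635977 (plus strand), that of Krt18 at chr15:102027990-102028019 (plus strand) and that of Crb3 at chr17:57062182-57062211 (plus strand). The motif begins 57, 93, 19, 214 and 7 bases before the RefSeq start in this order. GENCODE vM21 places the Epcam and Krt18 stretches outside the gene. Those of Cldn7, Cldn6 and Crb3 overlap, in full or in part, an untranslated region of at least 1 transcript. Whether the E-box itself lies inside that region was not determined. Crb3, a polarity protein of the apical membrane, stood at 1.84 CPM in N-cadherin-positive cells against 38 CPM. A motif match is a description of the sequence, and binding was not measured.

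Genes for EMT transcription factors were higher. Of 12 listed, 10 reached 5 CPM, and 8 of these were at least 1.5-fold higher and 0 lower, with a median log2 ratio of 1.03. Prrx1 (ENSMUSG00000026586, chromosome 1, 163245119 to 163313710), a homeobox gene of limb and craniofacial mesenchyme, stood at 187 CPM (179 to 194.7) against 39.3 CPM (37.3 to 41.5), a ratio of 4.75. Twist1 (ENSMUSG00000035799, chromosome 12, 33957671 to 33959829), a basic helix-loop-helix factor of mesenchyme, stood at 191 CPM (183 to 198) against 47.6 CPM (45.3 to 49.9), a ratio of 4.01. Zeb1 reached a ratio of 2.58 (interval 2.32 to 2.88) and Prrx2 a ratio of 2.26 (2.07 to 2.47), whereas Tcf4 (1.82) and Zeb2 (1.67) were between 1.5-fold and 2-fold higher. The Snail genes were sparse. Snai2 stood at 25 CPM against 10.01 CPM, and Snai1 at 5.45 CPM against 3.82 CPM, a ratio of 1.43. Klf4 was nearly equal (15.9 against 15.1 CPM), and Foxc1 and Foxc2 did not reach 5 CPM.

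Among genes for the mesenchymal cytoskeleton, vimentin stood apart from most of the contractile apparatus. Vim (ENSMUSG00000026728), which encodes the intermediate filament of mesenchymal cells, stood at 2220 CPM (2194 to 2246) against 844 CPM (834 to 854), a ratio of 2.63. Pmp22, a membrane protein gene that marks extraembryonic and lateral mesoderm in the list used here, stood at 464 CPM (452 to 476) against 175 CPM (170 to 179). The smooth muscle actin gene Acta2 stood at 1512 CPM (1491 to 1534) against 830 CPM (821 to 840), a ratio of 1.82. By contrast Tpm1, Tagln and Cald1, which encode actin-binding proteins of contractile filaments, differed little, with ratios of 1.09, 1.06 and 1.12. In all, 5 of the 15 genes of this list were at least 1.5-fold higher, 0 were lower and 10 lay between, and the median log2 ratio was 0.17. The CArG box, the motif of serum response factor (by its name alone), was found in the windows of 2 of 12 contractile genes (Cnn2 and Myl9) and of 1.81% of all genes.

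Matrix genes differed in both directions. Col3a1 (ENSMUSG00000026043, chromosome 1, 45311538 to 45349706), a fibrillar collagen, stood at 72.4 CPM (67.8 to 77.3) against 12.6 CPM (11.4 to 13.8). Col1a1 had a ratio of 3.67 (3.27 to 4.13), Col1a2 of 2.11 (1.94 to 2.29), and Vcan, a proteoglycan of embryonic mesenchyme, of 2.12. Col1a2 was close in N-cadherin-positive cells and in cells with both cadherins (81.7 and 70.3 CPM), and stood at 14.1 CPM in E-cadherin-positive cells. The 5 lower genes were Hapln1, a link protein gene, at 17.5 CPM against 41.1 CPM, the basement membrane collagen genes Col4a1 at 183 CPM against 290 CPM, Col4a2 at 120 CPM against 205 CPM and Col18a1 at 128 CPM against 218 CPM, and Lama5, a laminin chain of epithelial basement membranes, at 26.4 CPM against 56.4 CPM. Fn1, which encodes fibronectin, differed little (867 against 812 CPM). Of the 22 matrix genes that reached 5 CPM, 12 were at least 1.5-fold higher and 5 lower, and the median log2 ratio was 0.70. Further secreted and matrix-associated genes were among the leading ones, namely Htra1 (67.5 against 14.4 CPM), a serine protease, Mfap4 (98.9 against 22.0 CPM), a microfibril protein, and Serpinf1 (130 against 36.6 CPM), a secreted serpin. The fibroblast list, which shares its collagens with the matrix list, had 6 of 7 measured genes higher, of 12 in the list, and a median log2 ratio of 1.88. Its other members were sparse, with Pdgfrb at 17.4 CPM against 3.03 CPM and Ddr2 at 6.17 CPM against 0.623 CPM, while Thy1, Dcn, Lum and Dpt did not reach 5 CPM and Fap had 0 UMIs in the N-cadherin-positive cells.

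**Figure D2:**
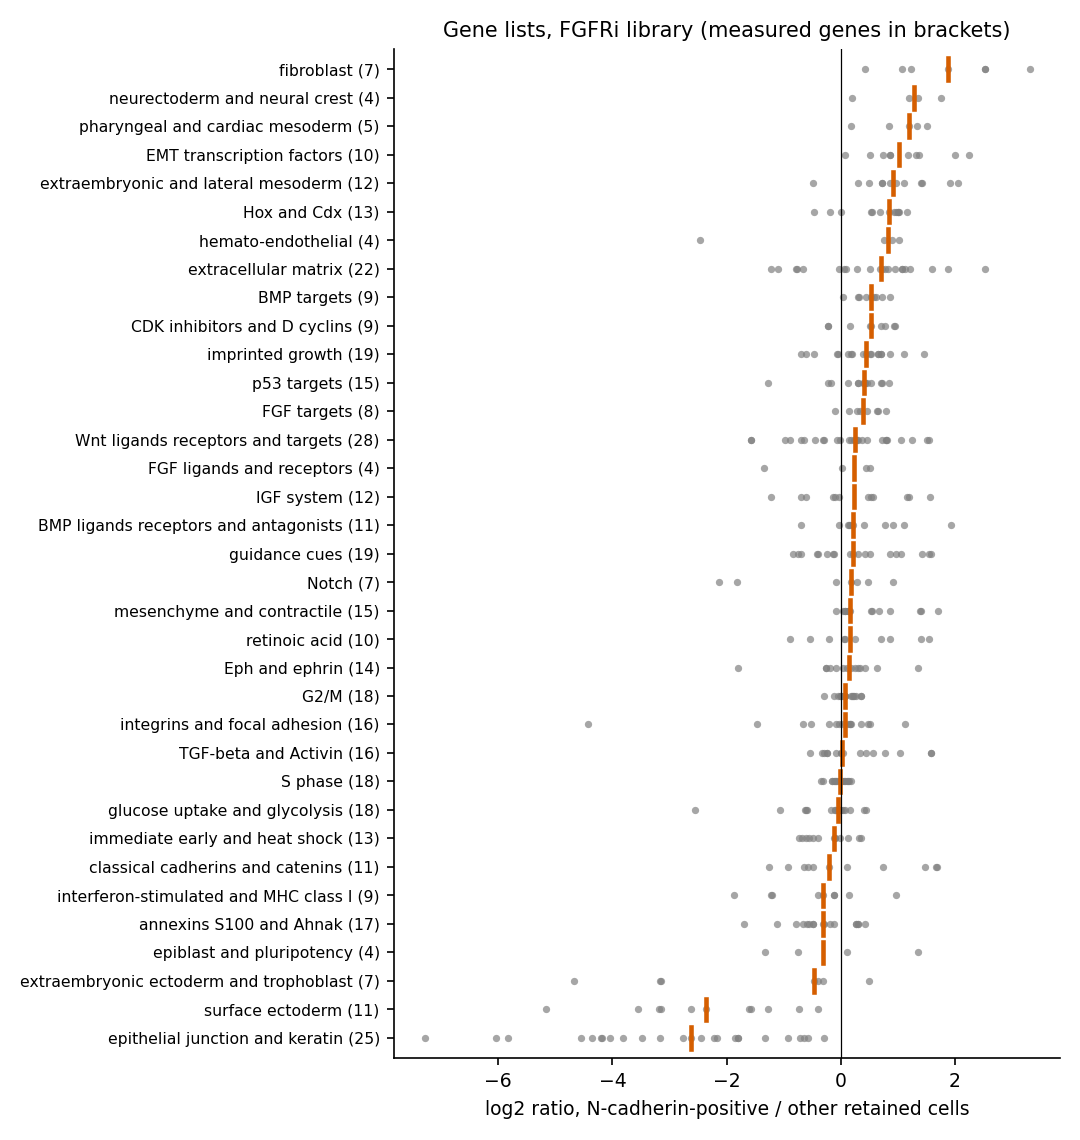
Each gray point is a gene of the named list with at least 5 CPM in either group, placed by its log2 ratio of N-cadherin-positive to other cells, and orange bars are list medians. Lists with 4 or more measured genes are shown, from the fibroblast list at the top (median 1.88) to the epithelial list at the bottom (median -2.62), with the S phase list near 0 (-0.01).

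Mesodermal markers were described next, to show which mesodermal programs the cells carried. In the extraembryonic and lateral mesoderm list 12 of 20 genes reached 5 CPM, 9 of these were at least 1.5-fold higher and 0 lower, and their median log2 ratio was 0.92. Hand2, Foxf1, Tbx20, Tbx3, Isl1, Pitx1 and Tdo2 did not reach 5 CPM, and Gata4 had 0 UMIs. Bmp4, the ligand gene of extraembryonic mesoderm, stood at 144 CPM (137 to 151) against 66.4 CPM (63.7 to 69.1), and Bambi, a decoy receptor gene induced by BMP, at 238 CPM against 145 CPM. Hand1, a transcription factor of lateral and extraembryonic mesoderm, stood at 81.2 CPM against 57.3 CPM, a ratio of 1.42. Gata6 and Tbx2 were low in absolute terms (14.0 and 6.97 CPM) but had ratios of 3.78 and 4.17, and Ahnak, a large scaffold protein gene, stood at 544 CPM against 761 CPM, a difference of less than 1.5-fold. In the pharyngeal and cardiac list 5 of 15 genes reached 5 CPM and 4 of these were higher, among them Wnt5a (81.6 against 28.4 CPM), a non-canonical Wnt ligand, and the cardiac actin gene Actc1 (42.5 against 18.5 CPM). Tbx1, Isl1, Mef2c, Tnnt2, Myl4 and Hcn4 did not reach 5 CPM, with Tbx1, a factor of pharyngeal mesoderm, at 0.641 CPM. The cardiac genes Nkx2-5, Myl7 and Tbx5 and the epicardial and pharyngeal mesoderm gene Tcf21 had 0 UMIs. In the paraxial list only Rspo3, Lfng and Pax3 of 18 genes reached 5 CPM, and Msgn1, Mesp2 and Ripply2 had 0 UMIs. Rspo3, a secreted enhancer of Wnt signaling, stood at 52.7 CPM (48.8 to 56.9) against 15 CPM (13.8 to 16.4).

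Pathways that were stimulated or inhibited in the culture were described by their ligands, receptors and targets. The study reports that the inhibitor dose used lowered phosphorylation of ERK, a main target of FGF signaling, only mildly. FGF signaling can therefore not be taken as fully blocked in these cells. Among FGF receptors, Fgfr1 stood at 69.2 CPM against 50.7 CPM and Fgfr2, the receptor of epithelia, at 12.6 CPM against 31.8 CPM, and 1 of 4 measured genes of this list was lower by the 1.5-fold rule and 0 higher (median log2 ratio 0.24). Of 8 measured FGF target genes, 3 were higher and 0 lower (median 0.40), and these were Spred1 (52.1 against 30.1 CPM), Il17rd and Dusp6. Spry4, Etv4 and Etv5 did not reach 5 CPM. In the BMP pathway 4 of 11 ligand, receptor and antagonist genes were higher and 1 lower (median 0.22), with Nog, an extracellular BMP antagonist, at 67.6 CPM against 35.7 CPM. Cells with both cadherins had a similar Nog level, at 61.5 CPM (57.2 to 66.0). The receptor genes Bmpr2 and Bmpr1a differed little (ratios 1.12 and 1.11). Of 9 measured BMP target genes 3 were higher and 0 lower (median 0.53), namely Msx1 (74.2 against 40.7 CPM), Bambi and Id1 (86.0 against 56.3 CPM). Id2, at 262 CPM against 193 CPM, and Id3, at 192 CPM against 132 CPM, differed less than 1.5-fold. Wnt genes were divided, with 8 of 28 higher and 6 lower (median 0.25). The epithelial ligands Wnt6 and Wnt4 were 2.97-fold and 2.95-fold lower, while Lef1 (91.2 against 43.6 CPM), Axin2 (62.5 against 37.8 CPM) and Notum (55.7 against 23.4 CPM), all direct Wnt targets, stood higher. In the TGF-beta and Activin list 4 of 16 genes were higher and 0 lower (median 0.02), led by Tgfbi at 152 CPM against 50.9 CPM. Of 7 Notch genes 1 was higher and 2 lower (median 0.18), and Notch1 stood at 11.8 CPM (9.95 to 13.8) against 51.6 CPM (49.2 to 54.0).

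Surface ectoderm markers, metallothioneins and glucose transporters were lower as well. In the surface ectoderm list, which shares Epcam with the epithelial list, 10 of 11 genes were lower and 0 higher (median log2 ratio -2.36), including Wnt6, Perp (62.8 against 152 CPM), Tfap2c (3.04 against 27.1 CPM) and Trp63 (2.48 against 29.2 CPM). Gata3, the exception, stood at 12.6 CPM against 16.6 CPM. Mt1 and Mt2, which encode metal-binding proteins, stood at 105 CPM (99.4 to 111) and 48.0 CPM (44.2 to 52.0) against 726 CPM (717 to 735) and 476 CPM (469 to 483). Slc2a3, a high-affinity glucose transporter, stood at 154 CPM (147 to 161) against 898 CPM (888 to 908), and Slc2a1 at 99.9 CPM against 209 CPM. In the list of glucose uptake and glycolysis 5 of 18 measured genes were lower and 0 higher (median -0.04), namely these transporters, the phosphofructokinase gene Pfkl, the aldolase gene Aldoc and the lactate transporter gene Slc16a3. The abundant glycolytic enzymes differed little, with Gapdh at 2411 CPM against 2574 CPM and Eno1 at 484 CPM against 489 CPM. Phlda2, an imprinted gene of the placenta, was 10.6-fold lower, and Sct, which encodes secretin, was 8.42-fold lower. With each cell thinned to 10000 UMIs, Sct was detected in 18.1% of the other cells and 6.26% of the N-cadherin-positive cells, with up to 150 UMIs in one of the other cells and at most 3 in an N-cadherin-positive cell. In the same thinned cells Phlda2 was detected in 34.4% of the other and 13.8% of the N-cadherin-positive cells. It reached 306 UMIs in one of the other cells and at most 5 in an N-cadherin-positive cell.

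Proliferation genes differed little from the pooled other cells. None of the 18 S phase genes and none of the 18 G2/M genes differed 1.5-fold, with median log2 ratios of -0.01 and 0.08. Pcna, the replication clamp, stood at 109 CPM against 113 CPM, and Top2a, the mitotic topoisomerase, at 259 CPM against 223 CPM. Cells with both cadherins alone stood lower, with Top2a at 141 CPM. The G2/M genes Cenpf, Hmgb2 and Ube2c stood there at 84.3, 424 and 102 CPM, against 143, 694 and 164 CPM in N-cadherin-positive cells. From 2 to 4 or more Cdh2 UMIs, Hmgb2 went from 939 to 597 CPM and Pcna from 157 to 91.7 CPM. Top2a (294 and 250 CPM) and Cenpf (145 and 144 CPM) changed less. Of 9 genes for inhibitors of cyclin-dependent kinases and D cyclins 4 were higher and 0 lower (median 0.53). The inhibitor genes among these were Cdkn2a at 511 CPM (499 to 524) against 299 CPM (293 to 305) and Cdkn1a at 461 CPM against 284 CPM, and the cyclin genes were Ccnd2 at 255 CPM against 133 CPM and Ccnd1 at 45.7 CPM against 23.7 CPM. Cells with both cadherins had similar levels of the inhibitor genes, with Cdkn2a at 502 CPM (490 to 515) and Cdkn1a at 471 CPM (459 to 483), so that the excess over the pooled other cells was not particular to the N-cadherin-positive cells. Of 15 p53 target genes 3 were higher and 1, Perp, was lower (median 0.40), the latter near the 6.76% of all genes that were lower.

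Markers of other cell types were examined in full, because the selection itself does not remove them. In the hemato-endothelial list 4 of 16 genes reached 5 CPM, 3 were higher and 1 lower, and the summed level was 301 CPM against 167 CPM, nearly all of it Runx1 (289 against 154 CPM). Gata2, a blood progenitor factor, was the lower gene (1.20 against 6.65 CPM). Etv2, Tal1, Sox17, Hbb-bh1, Hba-x and Gata1 had 0 UMIs, and a count of 0 in these cells allows a level of up to 0.240 CPM. In the neurectoderm and neural crest list 4 of 15 genes were measured and 3 were higher, with a summed level of 60.8 CPM against 26.6 CPM and Sox2 the most abundant (27.6 against 10.7 CPM), while Sox10, Foxd3 and Hes5 had 0 UMIs. In the endoderm list 2 of 13 genes were measured, Cldn6 and Gata6, and 9, among them Sox17, Foxa2 and Ttr, had 0 UMIs. In the extraembryonic ectoderm and trophoblast list 7 of 15 genes were measured, 0 were higher and 3 lower, with a summed level of 242 CPM against 335 CPM and Peg10 the most abundant, and Elf5, Rhox6 and Prl3d1 had 0 UMIs. In the epiblast and pluripotency list 4 of 12 genes were measured, 1 was higher and 2 lower, and the summed level was 59.0 CPM against 66.0 CPM. In the primordial germ cell list 2 of 8 genes were measured, of which 1, Tfap2c, was lower, and Prdm14 and Dppa3 had 0 UMIs. Runx1 and the low Sox2 and Zic2 levels therefore moved with the selection, and their part in the other results was not tested.

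Levels were next compared among the 4 cadherin classes. Vim stood at 2220 CPM in N-cadherin-positive cells, 1565 CPM in cells with both cadherins, 885 CPM in cells with neither and 238 CPM in E-cadherin-positive cells. Col3a1 followed the same order, at 72.4, 23.6, 15.3 and 2.19 CPM. Twist1 and Prrx1 did not, since cells with neither cadherin ranked second, at 95.5 and 80.2 CPM, above the cells with both cadherins at 52.7 and 45.5 CPM. Acta2 and Runx1 were close in N-cadherin-positive cells and in cells with both cadherins (1512 and 1498 CPM for Acta2, 289 and 271 CPM for Runx1). The classes differed in depth, with medians of 24240 UMIs for N-cadherin-positive cells, 31058 for cells with both cadherins, 17441 for cells with neither and 25797 for E-cadherin-positive cells. Of the cells with both cadherins, 12.0% were among the 5% of retained cells with the most UMIs, compared with 2.78% of the N-cadherin-positive cells. The part of this depth difference in the class values was not tested.

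**Figure D3:**
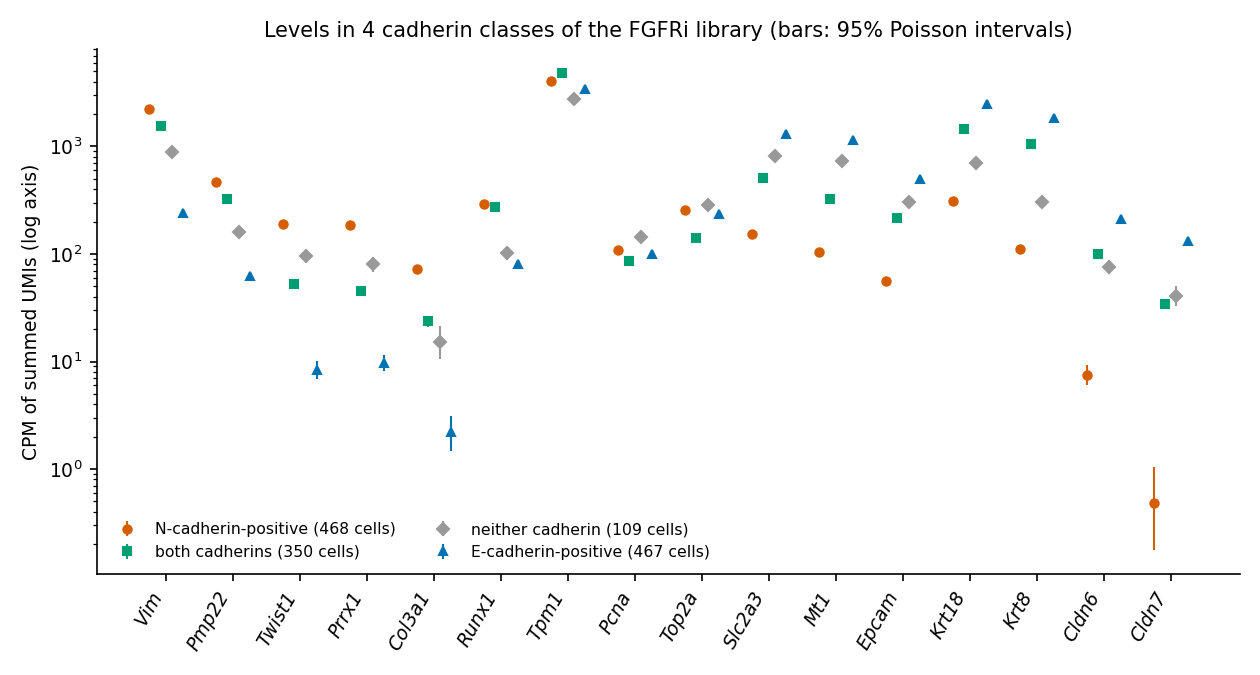
Points give CPM (log axis) of summed UMIs for 16 genes in 4 cadherin classes of the FGFRi library, and bars are exact 95% Poisson intervals. From Vim to Runx1 the N-cadherin-positive cells (circles) are highest, and from Slc2a3 to Cldn7 they are lowest, while for Top2a they (259 CPM) lie between cells with neither (287 CPM) and with both cadherins (141 CPM).

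Per cell, the separation was wide for some genes and partial for others. After each cell was thinned to 10000 UMIs, which 463 of the 468 N-cadherin-positive and 459 of the 467 E-cadherin-positive cells allowed, Vim was detected in 99.4% and 46.2% of cells, with medians of 19 and 0 UMIs. Without thinning the shares were 100% and 63.8%. Twist1 was detected in 65.2% (interval 60.7 to 69.6%) and 6.54% (4.45 to 9.20%), or 82.7% and 16.9% without thinning. Col3a1 was detected in 34.8% (30.4 to 39.3%) and 1.53% (0.615 to 3.12%), or 52.8% and 5.14% without thinning. Krt8 was detected in 27.4% (23.4 to 31.7%) of N-cadherin-positive and 85.6% (82.1 to 88.7%) of E-cadherin-positive cells, or 41.5% and 92.3% without thinning. No cell type known to lack these genes was set apart in this library, so the share that free RNA gives was not measured. Summed over the 25 epithelial genes, N-cadherin-positive cells held between 0 and 60 thinned UMIs, with a median of 7, and E-cadherin-positive cells between 5 and 263, with a median of 49. The ranges overlapped, although the upper quartile of the former, 11, lay below the lower quartile of the latter, 31. Cells with both cadherins lay between them, with a median of 25.

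Within cells that lacked Cdh1 and Cdx2 UMIs, levels were followed over Cdh2 UMIs of 0, 1, 2, 3 and 4 or more, in 100, 94, 101, 85 and 282 cells. The last 3 groups are the N-cadherin-positive cells. Cldn6 stood at 75.7, 17.6, 9.24, 6.02 and 7.42 CPM in this order, and Epcam at 306, 107, 86.7, 57.2 and 46.9 CPM. For both genes the step from 0 to 1 Cdh2 UMI was larger than that across the selection threshold from 1 to 2. Vim stood at 890, 1416, 1814, 1813 and 2431 CPM, with its lowest level at 0 and its highest at 4 or more Cdh2 UMIs. Twist1 stood at 98.1, 199, 207, 232 and 176 CPM, so that cells with 1 Cdh2 UMI, outside the selection, had a level inside the range of the selected cells. Median depth also increased over these groups, from 17648 over 19434, 20792 and 21278 to 26005 UMIs, and its part was not tested.

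**Figure D4:**
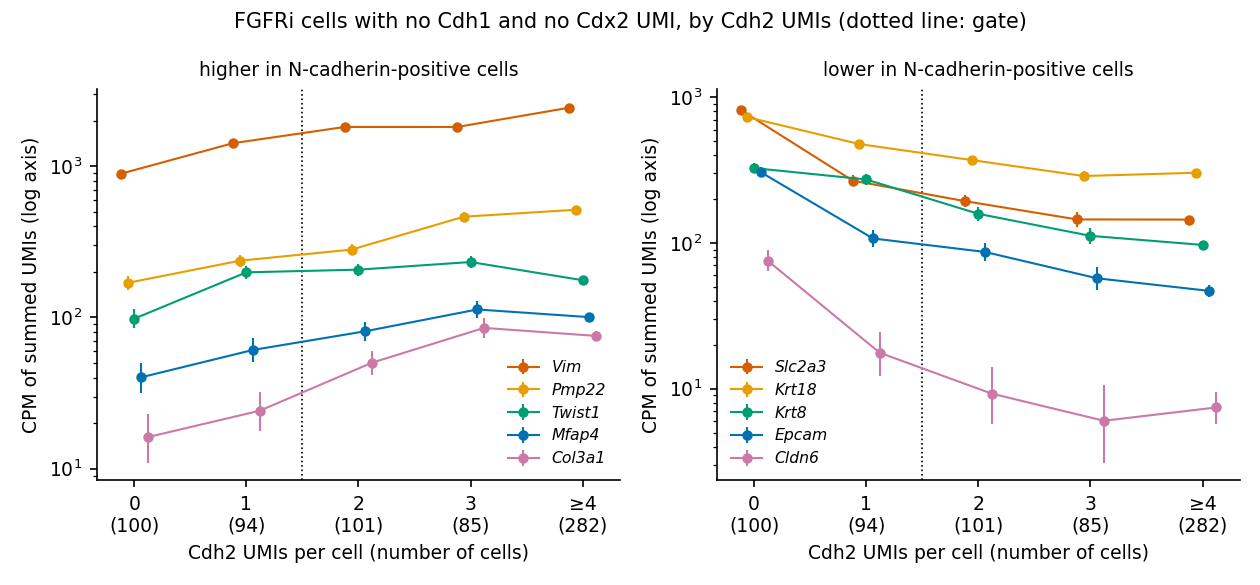
CPM of summed UMIs (log axis) in FGFRi cells without Cdh1 and Cdx2 UMIs, by the number of Cdh2 UMIs per cell, with 95% Poisson intervals and the number of cells in brackets. Right of the dotted line are the N-cadherin-positive cells. Cldn6 and Epcam drop mainly between 0 and 1 Cdh2 UMI, and Vim is highest (2431 CPM) at 4 or more.

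The N-cadherin-positive cells were not uniform. Among 2838 genes with a mean of at least 0.5 UMIs in the 463 thinned cells, ranked by variance in excess of counting noise (variance minus mean, divided by the squared mean), Spp1, Krt8, Mt1, Cnn1, Col1a2, Dkk1, Hist1h2ap and Mt2 ranked highest. Spp1, which encodes the secreted phosphoprotein osteopontin, had 0 UMIs in 73.0% of the cells and up to 60 in a cell. Krt8 had 0 UMIs in 72.6% of the cells and up to 31 in a cell, whereas Krt18 was detected in 60.7% of them (75.4% without thinning). Cnn1, a calponin of smooth muscle, ranged from 0 to 13 UMIs, and Col1a2 from 0 to 20. The excess was 12.3 for Spp1 and 9.55 for Krt8, against a median of 0.132 over the ranked genes. In the other cells of the library the excess was larger for Spp1 (32.0), Cnn1 (7.92 against 5.18) and Col1a2 (10.7 against 4.85) and smaller for Krt8 (2.65), Mt1 (2.65 against 6.64), Mt2 (2.30 against 4.36), Hist1h2ap (2.93 against 4.64) and Dkk1 (3.89 against 4.65). Across the same 463 cells, 91 pairs of leading and variable genes were correlated, and Prrx1 with Twist1 (Spearman's rho 0.51) and Mt1 with Mt2 (0.39) had the highest values. All these cells share 1 library and counts per cell are low, so the correlations are given as a description.

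Finally, the same selection was applied to the other 4 libraries, whose cells were not used to choose the members. Without FGF2 it retained 29 of 1696 cells (1.71%, interval 1.15 to 2.45%). With increasing FGF2 it retained 16 of 2725 (0.587%), 26 of 2125 (1.22%) and 98 of 2406 cells (4.07%, 3.32 to 4.94%). With every cell thinned to 10000 UMIs before the selection, the shares were 19.4% in the FGFRi library and 3.34, 2.51, 4.16 and 8.18% with increasing FGF2. These shares rest on the genes that chose the cells and are given as a description. Cdx2 is part of the selection, so these shares describe the 3 criteria together and not N-cadherin alone.

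The genes that set the N-cadherin-positive cells apart were compared with the same contrast inside each other library. Of the 39 higher genes, 36 had a ratio above 1 in the library without FGF2 (background 52.1% of the 3136 genes). With increasing FGF2 the counts were 28 (background 58.2%), 29 (57.5%) and 29 (51.3%), and 21 were above 1 in all 4 libraries (18.8%). Genes with 0 UMIs in the selected cells, of which there were 0 without FGF2 and 4, 4 and 2 with increasing FGF2, were counted as not above 1. Of the 54 lower genes, 48, 44, 39 and 44 were below 1 in the same order (background 47.9, 41.8, 42.5 and 48.7%), and 33 were below 1 in all 4 (12.2%). Among these lower genes 0, 1, 2 and 1 had 0 UMIs in the selected cells and were counted as below 1. Vim was higher in every library, with ratios of 2.63 in the FGFRi library and 6.32, 6.98, 6.53 and 2.57 with increasing FGF2. Epcam and Cldn6 were lower in every library, Epcam at ratios of 0.163 and then 0.384, 0.186, 0.173 and 0.267. For Prrx1 the other libraries held few or no counts. Its ratio was 4.75 in the FGFRi library and 0.544 (0.112 to 1.60) without FGF2, where it rested on 3 UMIs, and 0 UMIs were counted in the selected cells of the other 3 libraries. Counts of 0, read as at most 3 UMIs, allow up to 7.66, 3.47 and 1.07 CPM there. These levels are more than the 3.00, 1.29 and 0.559 CPM of the other cells. The upper limits of the ratio were taken from exact conditional intervals instead, a wider bound than 3 UMIs. With increasing FGF2 these limits were 3.17, 3.39 and 2.47. They lay below the 4.75 of the FGFRi library, while smaller differences were not detectable at this depth. Wnt5a, with a ratio of 2.87 in the FGFRi library, had ratios of 0.887, 0.511, 0.687 and 1.03 in the others. The difference between libraries was not tested, as there is 1 library per condition, with between 16 and 98 selected cells in those without the FGFRi.

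**Figure D5:**
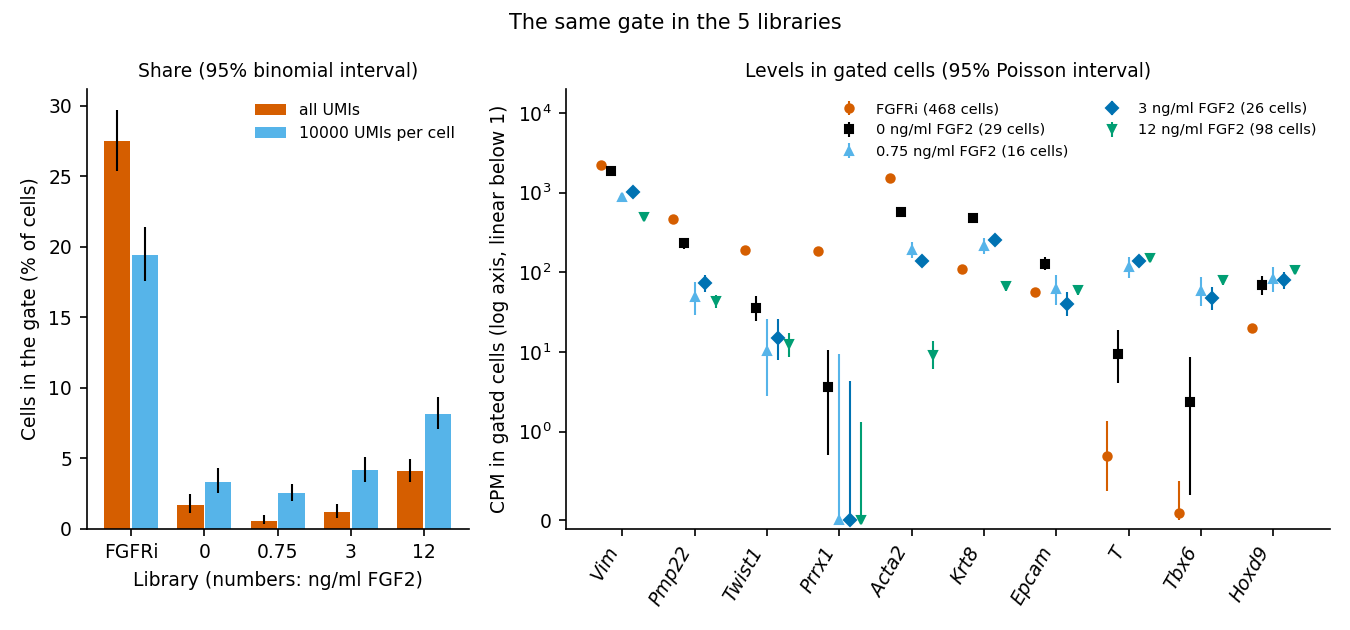
Left, bars give the percentage of cells in the selection in each library with all UMIs (orange) and after thinning to 10000 UMIs (blue), with exact 95% binomial intervals. Right, points give CPM in the selected cells of each library (log axis, linear below 1) with 95% Poisson intervals, where Prrx1 is highest with the FGFRi, T and Tbx6 are lowest with the FGFRi, and Prrx1 has 0 UMIs in the 3 libraries with FGF2.

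Set beside the 29 selected cells without FGF2, which held 838677 UMIs without the 3 defining genes, the N-cadherin-positive cells of the FGFRi library were at least 2-fold higher for 80 of 3206 genes (2.5%) and lower for 38 (1.19%). Ratios were ranked only for genes with UMIs in both groups. By this ranking the largest ratios were for Prrx1 (187 against 3.58 CPM), Foxq1 (64.9 against 5.96 CPM), a forkhead factor, Plagl1 (54.8 against 7.15 CPM), an imprinted zinc finger gene, Ptgs2 (53 against 7.15 CPM), which encodes cyclooxygenase, and Col1a1 (52.4 against 7.15 CPM). Their levels without FGF2 rest on few UMIs, since a count of 0 would allow 3.58 CPM there, so these ratios are imprecise. In the other direction, Ccl2 (2.96 against 65.6 CPM), a chemokine, and Hoxaas3, a non-coding RNA of the Hoxa cluster, the unnamed Gm45889, Hoxb9 and Hoxc8 were between 22.1-fold (Ccl2) and 5.98-fold (Hoxc8) lower with the FGFRi. The ratio of Prrx1 was 52.3, with a counting interval from 17.9 to 254. Twist1 was 5.33-fold higher (3.72 to 7.92), whereas Zeb1 and Zeb2 had ratios of 0.98 (0.72 to 1.35) and 1.03 (0.80 to 1.35), and Vim of 1.18. The streak and presomitic genes T and Tbx6 rested on 9 and 1 UMIs (0.721 and 0.0801 CPM) in the FGFRi cells. Without FGF2 they rested on 8 and 2 UMIs (9.54 and 2.38 CPM), where a count of 0 would allow 3.58 CPM, and they stood at 152 and 80.2 CPM in the selected cells at 12 ng/ml.

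Hox genes, which record position along the body axis, were sparse in the N-cadherin-positive cells. Of 29 Hox and Cdx genes 13 reached 5 CPM, 8 of these were at least 1.5-fold higher and 0 lower (median log2 ratio 0.85), and the highest, Hoxd9, stood at 20.03 CPM against 9.99 CPM. Levels were higher in the selected cells nearest the Cdh2 threshold. Hoxd9 stood at 35.6 CPM (28.3 to 44.3) in cells with 2 Cdh2 UMIs, at 26.6 CPM (19.9 to 34.8) in those with 3 and at 14.1 CPM (11.7 to 16.9) in the 282 with 4 or more, and at 28.2 CPM (21.3 to 36.6) in unselected cells with 1 Cdh2 UMI and none for Cdh1 and Cdx2. Hoxa9 (21.1, 28.6 and 7.06 CPM) and Hoxc9 (31.7, 28.1 and 12.8 CPM) were likewise lowest in the selected cells with 4 or more. In E-cadherin-positive cells Hoxd9 stood at 2.34 CPM. In the selected cells of the other libraries Hoxd9 stood at 69.2, 81.7, 79.9 and 107 CPM with increasing FGF2. Cdx2 was part of the selection, and without the Cdx2 criterion the median log2 ratio of the Hox list was 1.48.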

How the data were processed

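Per the labels and the matrix headers, the authors made 10x Genomics 3′ v3.1 libraries and deposited raw UMI counts per gene and barcode from Cell Ranger (mm10), whose version is 5.0.1 in the matrix headers and another in the study's methods. The deposited counts were used unchanged. Barcodes with at least 2500 genes and at most 10% mitochondrial UMIs were retained (filters of the study's methods), and no doublet caller was run. UMIs were summed per cell class without Cdh1, Cdh2 and Cdx2 and divided to CPM, with exact Poisson, binomial and conditional 95% intervals (SciPy 1.17.1). Deposited barcodes per library held between 50167816 and 84046746 UMIs.

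Gene positions are from GENCODE vM21 (GRCm38), which matched 32158 of 32285 identifiers. Named genes were the 12 with the largest ratio each way, up to 4 per list with the highest CPM, the 8 most variable, and 5 each way against 0 ng/ml FGF2. Some items that these rules select are not reported here. Other named genes were chosen after their values were seen. The members and the 38 gene lists were chosen with earlier results of these data known. Alternatives included TMM factors (edgeR 4.0.16), thinning, other selections and other filters. Code was tested on simulated data.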

Additional observations from a re-analysis of the deposited data

Results flagged for a closer look

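Of the 934 barcodes of the FGFRi library that the filters removed, 38 met the same Cdh2, Cdh1 and Cdx2 criteria, a share of 4.07%. This value was listed because more than 3 barcodes were counted in data outside the comparisons. The removed barcodes of the other libraries met the criteria at 2.53, 3.99, 7.32 and 7.66% with increasing FGF2, so the FGFRi share lay within their range. These barcodes enter none of the comparisons, and the removed barcodes of the FGFRi library had a median of 1677 UMIs.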

How the results depend on the processing

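The counts of 39 higher and 54 lower genes stayed within 1.5 times under TMM factors, size factors, equal weight per cell, depth bins, both other Cdh2 thresholds, a selection without Cdx2, both other cell filters, removal of the 5% of cells with the most UMIs, and without cells at 0 of both cadherins. They moved to 35 lower genes where cells were thinned before the selection, to 145 higher and 220 lower with a minimum of 10 CPM, to 1584 and 1182 with no minimum, to 103 and 114 at a ratio of 1.5, and to 100 and 120 against E-cadherin-positive cells alone. The share of 27.5% moved to 19.4% with thinning, 33.0% with at least 1 and 21.6% with at least 3 Cdh2 UMIs, 30.6% without the Cdx2 criterion and 19.2% with no filter on cells. Of the 39 higher and 54 lower genes, 32 and 34 stayed past the rule where cells were thinned before the selection. The list value named median log2 ratio, paraxial and presomitic mesoderm (3 genes, 0.75), became -0.0307 with thinning, and no named gene past the 2-fold rule changed sign. Sizes were less stable than signs. Over 13 settings, 480 of 2002 values for named genes moved outside their counting interval, and 68 of 494 list medians moved by the same kind of limit. A lower minimum or ratio admits more genes by construction, and the causes of the other moves were not tested. No paired analysis was possible because each condition is 1 library. The selection reads UMIs of 3 genes per cell, and thinning leaves fewer of each, so depth limits the selection itself.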

Other observations

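Further gene groups are described here by their counts at 1.5-fold, beside 5.65% higher and 6.76% lower of all 10051 genes at this level. In the imprinted growth list 7 of 19 genes were at least 1.5-fold higher in N-cadherin-positive than in other cells of the FGFRi library and 2 lower (median log2 ratio 0.44), with Peg3 at 882 CPM against 558 CPM, Mest at 306 CPM against 141 CPM and the growth factor gene Igf2 at 246 CPM against 398 CPM. In the IGF system 3 of 12 genes were higher and 3 lower (median 0.23). The binding protein genes diverged, with Igfbp4 at 258 CPM (250 to 268) against 87.7 CPM (84.6 to 90.8) and Igfbp2 at 731 CPM (716 to 746) against 1692 CPM (1679 to 1706). In the guidance cue list 6 of 19 genes were higher and 3 lower (median 0.22), with Robo2 at 89.3 CPM against 29.7 CPM, Nrp2 at 192 CPM against 105 CPM and Nrp1 at 64.9 CPM against 24.3 CPM. Of 14 Eph and ephrin genes 2 were higher and 1 lower (median 0.15), the latter near the share of all genes.

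Of 10 retinoic acid genes 4 were higher and 1 lower (median 0.16), and the binding protein gene Crabp1 stood at 164 CPM against 61.9 CPM. In the MHC class I and interferon list 1 of 9 measured genes was higher and 3 lower (median -0.31), with H2-D1 at 14.2 CPM against 51.7 CPM and H2-K1 at 23.5 CPM against 54.4 CPM, while B2m stood at 123 CPM against 111 CPM. The annexin and S100 list had 5 of 17 genes lower and 0 higher (median -0.32). Among cadherins and catenins 4 of 11 genes were higher and 3 lower (median -0.21), with Pcdh18 at 54.4 CPM against 19.6 CPM and Ctnna1 at 272 CPM against 425 CPM. Of 16 integrin and focal adhesion genes 1 was higher, near the share of all genes, and 3 lower (median 0.07), and Itgb4, which anchors epithelia to the basement membrane, stood at 0.481 CPM against 10.3 CPM. Of 13 immediate early and heat shock genes 3 were lower and 0 higher (median -0.12).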
